A study of Mus musculus with 4 samples.

Results

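The TNF superfamily genes of mouse C2C12 myoblasts were compared between cells transfected with K97E lamin A and cells transfected with wild-type (WT) lamin A. Members were chosen with earlier results of these data known, by a rule that uses gene symbols and no measured value, as the numbered Tnfsf and Tnfrsf genes plus Tnf, Lta, Ltb, Ltbr, Cd40 and Cd27. This gave 38 of the 55416 genes in the files, namely 14 ligands, 23 receptors and Tnfsf13os, an RNA from the strand opposite Tnfsf13 whose symbol also matched. Of these, 21 were measured, meaning a mean of at least 0.5 TPM (the usual level corrected for transcript length and library size) over the 4 libraries. C2C12 is a mouse muscle precursor line, lamin A builds filaments under the nuclear membrane, and K97E is labelled a DCM mutant, DCM being the usual abbreviation of dilated cardiomyopathy. The K97E group and the WT group had 2 libraries each, described as biological replicates, from cells given 3 µg of DNA by lipofection in medium free of serum and antibiotics and harvested after 24 h. Every library therefore came from cells that received lamin A DNA, and cells without it were not analysed here. The share of cells that took up the DNA, the species of the transfected lamin A and whether replicates came from separate transfections are not given in the sources used here, so each p-value rests on a spread between libraries that may be technical. The titles of the K97E samples spell the name of the line differently from their cell line field, which gives C2C12.

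Ligands of the TNF superfamily are mostly trimeric proteins of the cell surface that can be shed, and each engages one or a few receptors. Receptors with a death domain, such as TNFR1 and DR5, recruit adaptors that can lead to caspase activation or to NF-kB, most others bind TRAF adaptors that feed NF-kB and MAP kinases, and decoy receptors bind a ligand without passing on a death signal. In muscle the best known axis is TWEAK (Tnfsf12) with its receptor Fn14 (Tnfrsf12a), linked to myoblast proliferation and to muscle wasting, and TNF itself is known to inhibit myogenic differentiation.

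Coverage times transcript length summed to 11.6 and 10.8 gigabases in the K97E libraries and 8.96 and 10.6 gigabases in the WT libraries, the depth behind these values. Lmna stood at 660 and 629 TPM in the K97E libraries and 558 and 596 TPM in the WT libraries, and reads of the transfected DNA and the cells' own gene cannot be separated in these values. Across tested genes the K97E libraries had a Pearson correlation of 0.9911, the WT libraries one of 0.9849 and the pairs across groups 0.9866 to 0.9895, so the WT libraries were less alike than libraries of different groups. The myoblast markers Myod1, Myf5, Des, Cdh15 and Itga7 were measured, the 7 myoblast markers summed to 644 and 652 TPM with K97E and 618.5 and 755 TPM with WT, and Pax7 and Myog were at or below 0.0959 TPM in every library. Of 8 leukocyte markers only Cd68 was measured, the 8 together summed to 3.40 to 4.73 TPM with K97E and 4.06 to 5.90 TPM with WT, and Adgre1 and Cd3e were listed at 0 throughout. Endothelial markers summed to 17.4 to 19.0 TPM with K97E and 18.2 to 20.7 TPM with WT, nearly all of it Cdh5, with Kdr listed at 0. Of 4 fibroblast markers 3 were measured, summing to 103.4 to 110.7 TPM with K97E and 95.1 to 104.2 TPM with WT, and 0 of 4 epithelial markers were.

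No TNF superfamily gene passed the test between K97E and WT. Groups were compared with limma on log2(TPM + 0.5) after scaling, with Benjamini-Hochberg adjustment over all 16304 genes with a mean of at least 0.5 TPM. At an adjusted p under 0.05 limma called 0 of 21 measured members, against 0.00613% of all tested genes, which is 1 gene, Mfsd4a. At an unadjusted p under 0.05 there was 1 member, the receptor Tnfrsf9, which is 4.76% of the members, where 3.68% of tested genes lay under that value. An exact permutation test of 2 against 2 libraries cannot go below 0.333. By value 14 of 21 members were lower with K97E, against 50.5% of tested genes, and the median log2 difference was -0.06 over the members and -0.0017 over all tested genes. With TPM as deposited 11 members were lower and the median was -0.0055, where the median of all tested genes was 0.05. After scaling, the groups did not overlap for 7 members, 5 lower and 2 higher, where 33.1% of tested genes did not overlap (16.8% lower and 16.3% higher). The 5 were Tnfrsf9, Tnfrsf18, Tnfsf15, Tnfrsf1a and Tnfrsf10b, the last 2 by small differences and not on the deposited values. The 2 higher were Tnfrsf12a and Tnfrsf25. On the deposited values Ltbr and Tnfsf13b also had groups that did not overlap, both higher with K97E. The count of lower members thus moved with the scaling, and so did the median of all tested genes. The shares of all tested genes that were lower, or did not overlap, on the deposited values are not given here.

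What the 95% intervals of limma left room for was narrow for most members. For 18 of 21 members the interval lay within a 2-fold change either way, as it did for 92.1% of tested genes, and the exceptions were the ligand Tnfsf10 and the weakly expressed Tnfrsf11b and Cd40. All fold changes and intervals are K97E minus WT on the log2(TPM + 0.5) scale, which understates changes of weakly expressed genes and narrows their intervals. With a pseudocount of 0.1 the differences were -0.50 for Tnfrsf18, 0.46 for Tnfrsf25 and -0.29 for Tnfsf13. Intervals at that setting are not given here, so for weakly expressed members a 2-fold change in TPM is not excluded. In bulk samples fewer cells expressing a gene and less RNA per cell cannot be told apart.

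**Figure D1:**
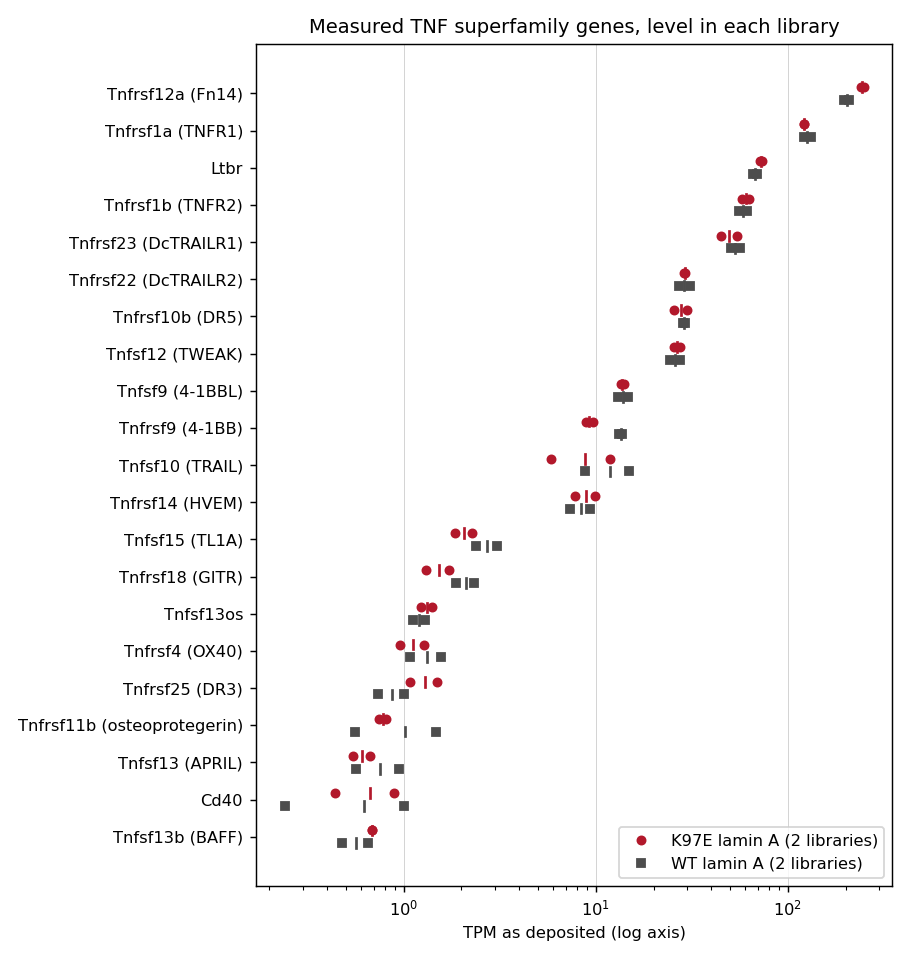
Level of each of the 21 measured TNF superfamily genes in TPM as deposited, on a log axis, with a circle for each K97E library, a square for each WT library and a vertical tick at each group mean (n = 2). Levels run from about 245 TPM for Tnfrsf12a with K97E down to under 1 TPM, and the K97E points of Tnfrsf9 lie apart from its WT points.

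Receptors made up most of the superfamily RNA. The 23 receptors summed to 636 and 624 TPM in the K97E libraries and 585.5 and 605.5 TPM in the WT libraries, whereas the 14 ligands summed to 49.1 and 57.1 TPM with K97E and 59.8 and 52.3 TPM with WT. Tnfrsf12a, Tnfrsf1a, Ltbr and Tnfrsf1b together held 78.4% and 80.1% of receptor TPM in the K97E libraries and 76.8% and 76.2% in the WT libraries.

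Tnfrsf12a, which encodes Fn14, the receptor of TWEAK, was the most abundant member (GRCm39 chromosome 17, 23894419 to 23896442, minus strand). It stood at 241 and 248 TPM in the K97E libraries and 196 and 210 TPM in the WT libraries, a mean of 245 ± 4.8 TPM with K97E and 203 ± 9.6 TPM with WT (SD, n = 2 each). Both K97E libraries lay above both WT libraries. The log2 difference was 0.21 (SE 0.10, 95% interval -0.03 to 0.45), with a limma adjusted p of 0.965, so it did not pass. It ran from 0.16 to 0.26 with a library left out. Tnfrsf12a made up 37.9% and 39.8% of receptor TPM with K97E and 33.5% and 34.6% with WT. At least 92.4% of its TPM in every library was credited to the 4-exon transcript ENSMUST00000024698. Before scaling for depth, the 5′-most exon of that transcript had a coverage of 397 and 401 with K97E and 174 and 328 with WT. Its 3′-most exon had 1459.5 and 1426.7 with K97E and 1017 and 1234 with WT. WT replicate 1 was thus lowest mainly at the 5′ end, and the part of this in the difference was not tested.

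Its ligand Tnfsf12, TWEAK, was the most abundant ligand, at 25.5 and 27.5 TPM with K97E and 27.6 and 24.3 TPM with WT. These values overlap, and the log2 difference was -0.03 (95% interval -0.31 to 0.26). It turned positive with TPM as deposited (0.03) and with FPKM as deposited (0.0025). The receptor exceeded the ligand 9.47-fold and 9.02-fold in the K97E libraries and 7.09-fold and 8.64-fold in the WT libraries. Of the annotated exon bases of Tnfsf12, 48.3% are shared with Tnfsfm13, an annotated gene on the same strand that also covers 60.0% of the exon bases of Tnfsf13, and how reads were divided among the 3 genes rests on the authors' software. Tnfsfm13 was credited with 11.4 and 6.74 TPM in the K97E libraries and 7.25 and 8.74 TPM in the WT libraries.

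Both TNF receptors were well expressed while TNF itself was not. Tnfrsf1a, encoding the death domain receptor TNFR1, stood at 121 and 121 TPM with K97E and 132 and 121 TPM with WT, with a log2 difference of -0.12 (95% interval -0.35 to 0.11). Tnfrsf1b, encoding TNFR2, which lacks a death domain, stood at 63.0 and 58.1 TPM with K97E and 55.7 and 61.7 TPM with WT, with a log2 difference of -0.01 (95% interval -0.25 to 0.22). The deposited WT values of Tnfrsf1a differed by more than its group means did, and the groups of Tnfrsf1b overlapped. The ratio of Tnfrsf1a to Tnfrsf1b was 1.92 and 2.09 with K97E and 2.38 and 1.96 with WT. Tnf was listed at 0 in all 4 libraries. Lta, which encodes lymphotoxin alpha and also binds these receptors, reached at most 0.155 TPM.

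Ltbr, the lymphotoxin beta receptor, which drives the noncanonical NF-kB pathway, stood at 73.2 and 71.9 TPM with K97E and 65.7 and 68.9 TPM with WT. The deposited values of the groups do not overlap, but after scaling they did, and the log2 difference was 0.05 (95% interval -0.16 to 0.26). Of its ligands Ltb reached at most 0.0316 TPM and Tnfsf14, LIGHT, was listed at 0 throughout. Tnfrsf14, encoding HVEM, the other LIGHT receptor, stood at 7.84 and 9.91 TPM with K97E and 9.38 and 7.32 TPM with WT, with overlapping groups and a log2 difference of 0.03 that ran from -0.16 to 0.22 with a library left out.

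RNA of TRAIL, its death receptor and its decoys was measured. Tnfrsf10b, the only death receptor for TRAIL in mice, stood at 29.8 and 25.7 TPM with K97E and 28.3 and 29.3 TPM with WT, and its log2 difference was -0.11 (95% interval -0.36 to 0.13). Tnfrsf23 and Tnfrsf22 encode decoy receptors of mice that bind TRAIL without a death domain. Tnfrsf23 stood at 54.2 and 44.8 TPM with K97E and 50.5 and 56.3 TPM with WT, and Tnfrsf22 at 29.3 and 28.9 TPM with K97E and 27.0 and 30.9 TPM with WT. The groups of each decoy overlapped, and the log2 differences were -0.17 (95% interval -0.45 to 0.11) for Tnfrsf23 and -0.05 (95% interval -0.31 to 0.21) for Tnfrsf22. Decoys held 73.7% and 74.1% of the summed TPM of these 3 receptors in the K97E libraries and 73.2% and 74.8% in the WT libraries. The decoy genes are neighbouring paralogs on GRCm39 chromosome 7, so reads may be shared between them, and Tnfrsf26, the remaining gene of that cluster, stayed at or under 0.256 TPM.

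Tnfsf10, encoding TRAIL, varied more between replicates than any other member above 2 TPM (GRCm39 chromosome 3, 27371177 to 27396576, plus strand). It stood at 5.85 and 11.8 TPM in the K97E libraries and 15.0 and 8.75 TPM in the WT libraries. K97E replicate 2 and WT replicate 2 lay closer to each other than either did to its own partner. The log2 difference was -0.49 (SE 0.39, 95% interval -1.47 to 0.49, limma adjusted p = 0.965). Without K97E replicate 1 the difference was 0.02, and without K97E replicate 2 it was -1.0. Without WT replicate 1 it was -0.12, and without WT replicate 2 it was -0.86. The value of Tnfsf10 thus depended on which library was left out, in either group. The reads were not few, with 1500 and 2823 estimated reads in the K97E libraries and 3050 and 2050 in the WT libraries.

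**Figure D2:**
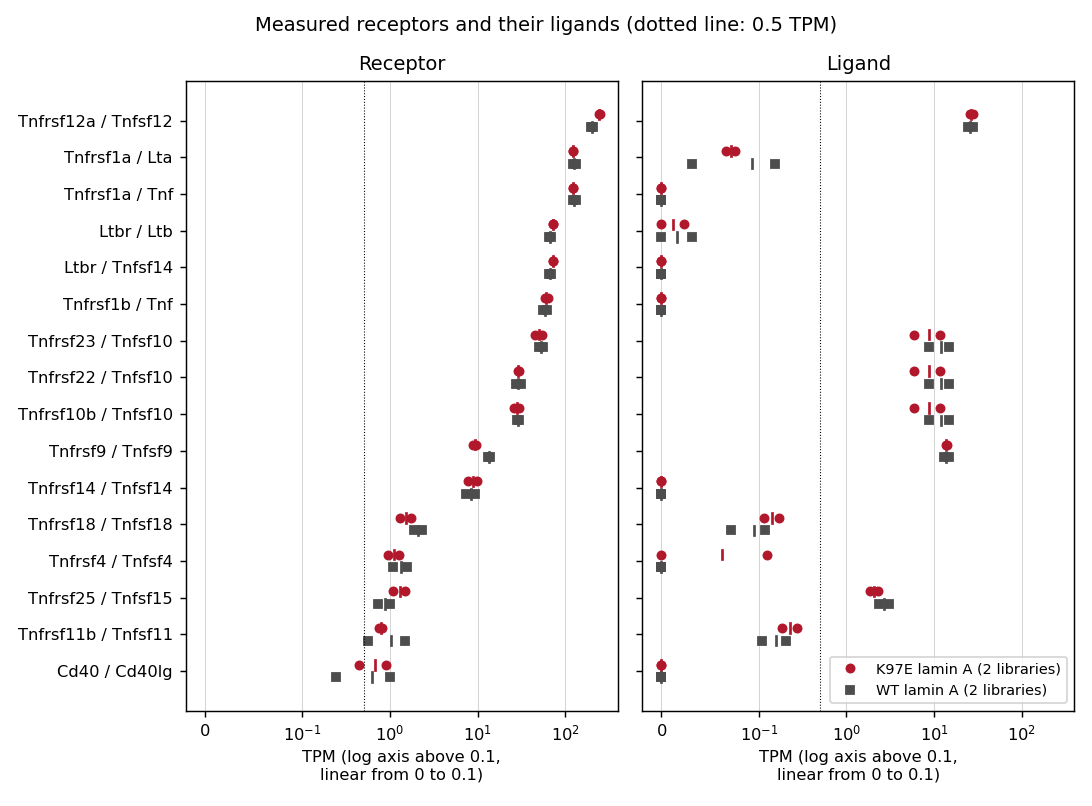
TPM of each measured receptor (left) and of a ligand known to bind it (right), each row 1 receptor and ligand, with circles for K97E libraries, squares for WT libraries and ticks at group means. The axis is linear from 0 to 0.1 TPM and logarithmic above, and the dotted line marks 0.5 TPM. Ligands of Tnfrsf1a, Tnfrsf1b, Ltbr and Tnfrsf14 lie at or near 0, whereas Tnfsf12, Tnfsf10, Tnfsf9 and Tnfsf15 lie right of the line.

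Set against a list of main ligands, which is not complete, 6 of the 14 measured receptors had a listed ligand that was also measured, and 8 did not. The 6 were Tnfrsf12a with Tnfsf12, Tnfrsf10b, Tnfrsf22 and Tnfrsf23 with Tnfsf10, Tnfrsf9 with Tnfsf9 and Tnfrsf25 with Tnfsf15. The 8 were Tnfrsf1a, Tnfrsf1b, Ltbr, Tnfrsf14, Tnfrsf18, Tnfrsf4, Tnfrsf11b and Cd40. For Tnfrsf11b the list holds only Tnfsf11, whereas osteoprotegerin is also known to bind TRAIL, whose gene Tnfsf10 was measured.

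Tnfrsf9 was the member that stood farthest apart by test and by size. It encodes 4-1BB (CD137), a receptor best known as a costimulatory molecule of activated T cells, and lies on GRCm39 chromosome 4, 150999019 to 151030559, plus strand. It stood at 9.64 and 8.85 TPM in the K97E libraries and 13.8 and 13.3 TPM in the WT libraries, which is 9.25 ± 0.56 TPM with K97E and 13.5 ± 0.37 TPM with WT (SD, n = 2 each). The groups did not overlap, and replicates of a group differed by less than the gap between groups. The log2 difference was -0.58 (SE 0.10, 95% interval -0.84 to -0.32), with an unadjusted limma p of 0.00186 and an adjusted p of 0.965 over all tested genes, so Tnfrsf9 did not pass. Among all tested genes 4.51% had groups that did not overlap and a log2 difference of at least 0.4 in size. The value was steady, from -0.61 to -0.56 with a library left out and from -0.60 to -0.52 under the other settings. Its reads were many, with 994 and 854 estimated reads in the K97E libraries and 1123 and 1305 in the WT libraries. No exon of Tnfrsf9 overlaps an exon of another gene.

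Its ligand Tnfsf9 stood at 13.6 and 14.0 TPM with K97E and 12.99 and 14.7 TPM with WT, with overlapping groups and a log2 difference of -0.06 (95% interval -0.35 to 0.22). The ratio of ligand to receptor was 1.41 and 1.58 in the K97E libraries and 0.942 and 1.11 in the WT libraries. Of the exon bases of Tnfsf9, 14.9% overlap Gm11110 on the opposite strand, and the recorded command names no strand option although the library kit is labelled stranded, so reads of the overlap can be credited to either gene.

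The ratio between groups varied along Tnfrsf9, and differences between its exons were not tested. The 8-exon transcript ENSMUST00000116257 carried between 74.1% and 84.1% of Tnfrsf9 TPM in each library. Exon coverage, summed over transcripts and put on the TPM scale, gave a ratio of K97E to WT means between 0.594 and 0.679 for exons 5 to 8, and between 0.708 and 0.813 for exons 1 to 4. In exons 4 to 8 both K97E libraries lay below both WT libraries, whereas in exons 1 to 3 WT replicate 1 was under at least 1 K97E library. Low 5′ coverage in WT replicate 1 was also seen for Tnfrsf12a and Tnfrsf23, but not for every member. For the leading transcript of Tnfrsf23, the 5′-most exon had a coverage of 110 and 96.6 with K97E and 58.9 and 125 with WT. Its 3′-most exon had 253 and 195 with K97E and 170 and 243 with WT. For the leading transcript of Ltbr, the 5′-most exon had a coverage of 138 and 125 with K97E and 91.8 and 101 with WT. Its 3′-most exon had 372 and 346 with K97E and 259 and 333 with WT. How many members had low 5′ coverage in WT replicate 1 is not given here. The last exon of Tnfrsf9, of 1330 bases and the longest, stood at 8.48 and 8.23 with K97E and 12.5 and 12.1 with WT. Exon 7, of 135 bases, stood at 4.43 and 5.31 with K97E and 9.91 and 6.39 with WT. Transcripts without that exon were credited with 24.2% and 15.0% of Tnfrsf9 TPM in the K97E libraries and 21.5% and 23.6% in the WT libraries, which overlap.

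**Figure D3:**
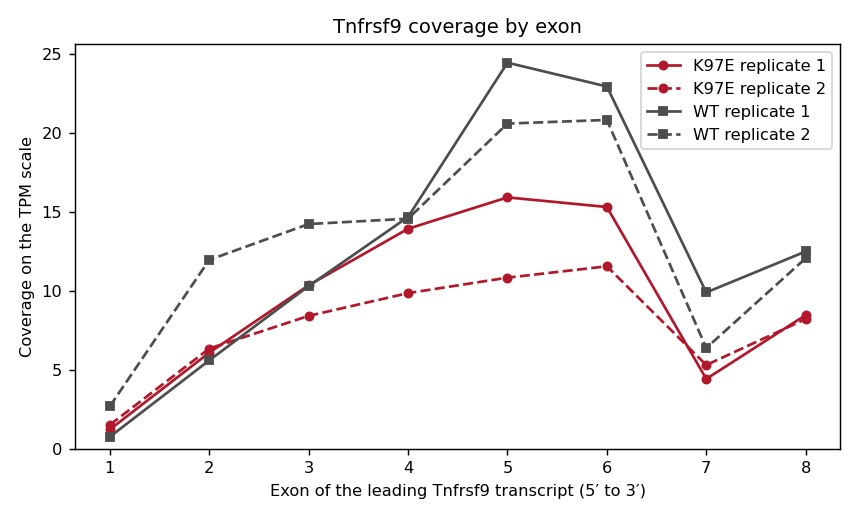
Coverage of each exon of the leading Tnfrsf9 transcript, summed over all Tnfrsf9 transcripts and put on the TPM scale, against exon number from 5′ to 3′. Each line is 1 library, with circles for K97E and squares for WT, and the K97E lines run below the WT lines from exon 4 on.

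The promoters of Tnfrsf9 and Tnfrsf18 are shown because these were the members whose groups did not overlap and whose log2 difference was at least 0.4 in size. They are the 250 bases before each start listed by RefSeq in GRCm38.p6, a build other than that of the files, written 5′ to 3′ on the plus strand. Capitals mark the NF-kB consensus site (the kappaB motif), searched on both strands.
Tnfrsf9, upstream start, chr4:150919905-150920154: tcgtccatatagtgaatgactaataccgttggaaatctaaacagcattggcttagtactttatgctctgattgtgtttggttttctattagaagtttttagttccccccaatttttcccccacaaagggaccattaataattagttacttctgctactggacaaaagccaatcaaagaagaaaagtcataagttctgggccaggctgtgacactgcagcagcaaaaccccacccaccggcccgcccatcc
Tnfrsf9, downstream start, chr4:150927749-150927998: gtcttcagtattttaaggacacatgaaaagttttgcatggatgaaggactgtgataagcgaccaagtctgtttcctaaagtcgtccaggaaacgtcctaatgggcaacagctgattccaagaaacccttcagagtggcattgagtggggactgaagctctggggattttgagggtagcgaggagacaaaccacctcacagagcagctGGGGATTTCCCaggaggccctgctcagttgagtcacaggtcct
Tnfrsf18, chr4:156026072-156026321: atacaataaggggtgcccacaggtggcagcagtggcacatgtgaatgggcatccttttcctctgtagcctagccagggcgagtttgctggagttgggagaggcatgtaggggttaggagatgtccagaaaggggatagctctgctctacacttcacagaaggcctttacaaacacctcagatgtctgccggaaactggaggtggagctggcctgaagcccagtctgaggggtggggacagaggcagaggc
The RefSeq starts of Tnfrsf9 lie 7844 bases apart, the same distance as between the first exons of ENSMUST00000105672 and ENSMUST00000116257 in the files. The first exon of ENSMUST00000105672, the upstream one, had a coverage of 0 in 3 libraries and 0.000488 in WT replicate 1. The first exon of ENSMUST00000116257 had a coverage of 6.45 and 7.27 in the K97E libraries and 3.22 and 13.4 in the WT libraries, and the leading transcript begins at the downstream start. That promoter holds a pair of overlapping kappaB matches beginning 43 and 42 bases before the start, and the others hold none. Among all 32851 listed promoters, 3.9% hold a match in the same window, as do 3 of 33 promoters of TNF superfamily genes, those of Tnfrsf9, Tnfrsf8 and Ltb. A match describes the letters only and says nothing of binding in these cells.

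Tnfrsf18, encoding GITR, another costimulatory receptor of T cells, stood at 1.31 and 1.73 TPM with K97E and 2.32 and 1.88 TPM with WT. The K97E values lay below the WT values, and the log2 difference was -0.41 (SE 0.21, 95% interval -0.93 to 0.11), with a limma adjusted p of 0.965. The value was -0.07 with the most abundant transcript alone, and -0.24 without K97E replicate 1. Estimated reads were 82 and 103 in the K97E libraries and 104 and 111 in the WT libraries. Of its exon bases 27.2% overlap Gm16008 on the opposite strand, which stood at 3.39 and 2.34 TPM with K97E and 3.45 and 3.51 TPM with WT, and the part of that overlap in the difference was not tested. Tnfrsf4, the neighbouring gene for OX40, stood at 1.27 and 0.959 TPM with K97E and 1.08 and 1.57 TPM with WT, with overlapping groups and a log2 difference of -0.21, which was 0.15 with the most abundant transcript alone. Their ligands Tnfsf18 and Tnfsf4 reached at most 0.168 and 0.124 TPM.

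Tnfsf15, encoding TL1A, and its death domain receptor Tnfrsf25, DR3, differed in opposite directions by value. Tnfsf15 stood at 2.28 and 1.86 TPM with K97E and 2.37 and 3.06 TPM with WT, or -0.37 on the log2 scale (SE 0.19, 95% interval -0.83 to 0.10). Tnfrsf25 stood at 1.50 and 1.08 TPM with K97E and 0.738 and 1.00 TPM with WT, or 0.34 (SE 0.22, 95% interval -0.22 to 0.90), each with an adjusted limma p of 0.965. The groups did not overlap for either gene, but neither passed, and the interval of each spanned 0. Tnfrsf25 rested on 106 and 72 estimated reads in the K97E libraries and 43 and 70 in the WT libraries. With a library left out Tnfsf15 ran from -0.53 to -0.22, its ends without WT replicate 1 and WT replicate 2, and Tnfrsf25 from 0.19 to 0.49.

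**Figure D4:**
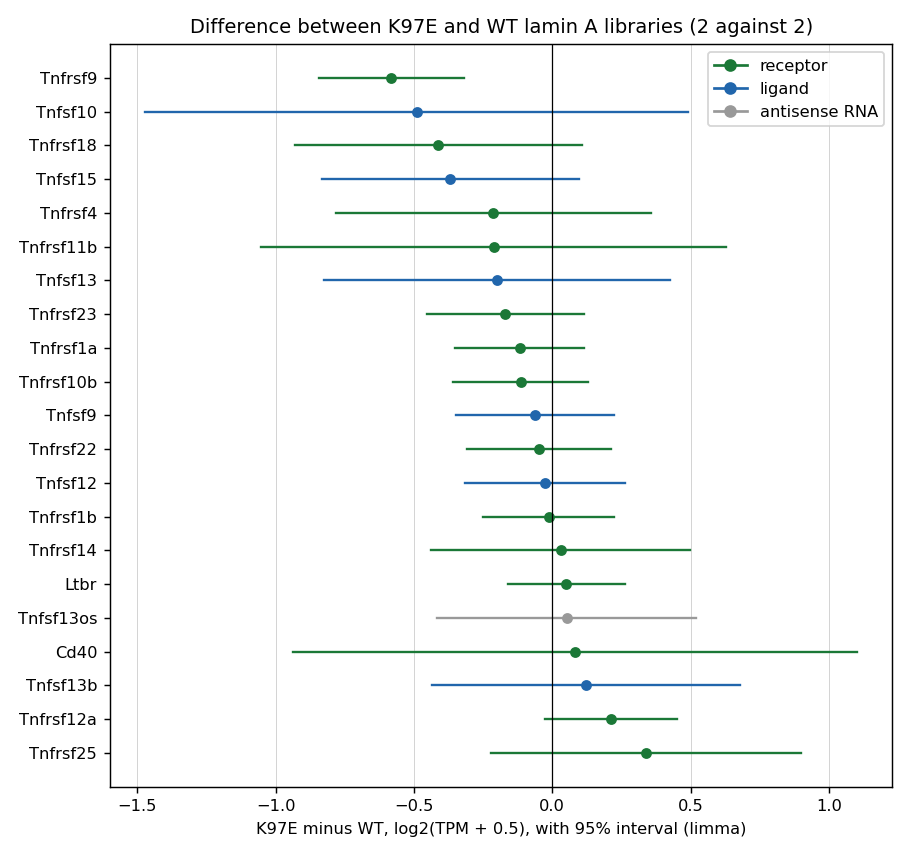
K97E minus WT difference on the log2(TPM + 0.5) scale for the 21 measured members, ordered by value, with 95% intervals from limma and colours for receptors, ligands and the antisense RNA. Among the 21 the interval of Tnfrsf9 alone does not reach 0, and those of Tnfsf10, Tnfrsf11b and Cd40 are the widest.

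The remaining measured members were weak. Tnfrsf11b, the soluble decoy osteoprotegerin, stood at 0.747 and 0.812 TPM with K97E and 1.47 and 0.558 TPM with WT, and its log2 difference of -0.21 turned to 0.24 without WT replicate 1. Cd40, a receptor of antigen-presenting cells, stood at 0.891 and 0.440 TPM with K97E and 0.240 and 1.01 TPM with WT, and its log2 difference of 0.08 ran from -0.44 to 0.60 with a library left out. Its 8-exon transcript ENSMUST00000184221 was credited with 0.377 and 0.338 TPM in the K97E libraries and listed at 0 in the WT libraries, on 21.1 and 17.9 estimated reads, a split that was not tested. Tnfsf13, APRIL, stood at 0.670 and 0.544 TPM with K97E and 0.949 and 0.562 TPM with WT. Tnfsf13b, BAFF, stood at 0.680 and 0.688 TPM with K97E and 0.655 and 0.480 TPM with WT. Tnfsf13os stood at 1.41 and 1.23 TPM with K97E and 1.12 and 1.29 TPM with WT, and it shares exon bases with Tnfsf13 and Tnfsfm13 on the opposite strand. The log2 differences were -0.20 for Tnfsf13, 0.12 for Tnfsf13b and 0.05 for Tnfsf13os, the last 2 negative with the most abundant transcript alone (-0.12 and -0.03). For these 5 genes the limma interval of the difference spanned 0.

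The other 17 members were under a mean of 0.5 TPM and were not tested. The nearest to that limit were Tnfsf13b and Cd40 above it and Cd27, a T-cell costimulatory receptor, below it, at 0.401 and 0.656 TPM with K97E and 0.257 and 0.300 TPM with WT. Tnf, Tnfsf14, Tnfrsf13b and Tnfrsf19 were listed at 0 in every library. The remaining 12 were above 0 in at least 1 library. They comprised the ligands Lta, Ltb, Tnfsf4, Tnfsf8, Tnfsf11 (RANKL) and Tnfsf18, and the receptors Tnfrsf8, Tnfrsf11a (RANK), Tnfrsf13c, Tnfrsf17, Tnfrsf21 and Tnfrsf26. Their highest value in any library was 0.617 TPM, for Tnfrsf17 in WT replicate 2.

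**Figure D5:**
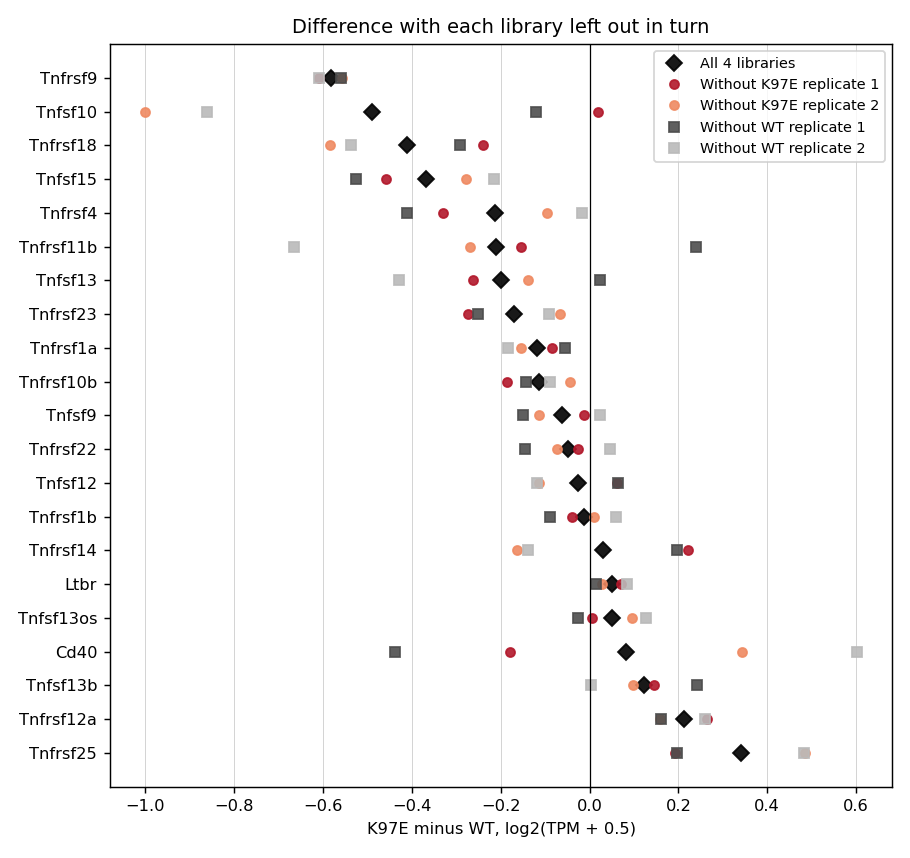
K97E minus WT difference on the log2(TPM + 0.5) scale for each measured member with all 4 libraries (diamond) and with each library left out (circles for K97E, squares for WT). Tnfrsf9 keeps its value at about -0.6, whereas Tnfsf10 and Cd40 spread over 1 log2 unit or more and 10 members lie on both sides of 0.

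A list of 9 superfamily genes that the naming rule leaves out was set beside the members. The list does not hold Tnfsfm13, which shares exon bases with Tnfsf12 and Tnfsf13 and had a mean of 8.52 TPM. Of the 9 listed genes 3 were measured and 0 passed. Fas, the death receptor of Fas ligand, stood at 30.3 and 26.4 TPM with K97E and 38.5 and 46.1 TPM with WT, or -0.62 on the log2 scale (SE 0.12), with an unadjusted limma p of 0.00271 and an adjusted p of 0.965. Its groups did not overlap. Eda2r, the receptor for an ectodysplasin isoform, stood at 59.9 and 55.5 TPM with K97E and 53.0 and 60.8 TPM with WT, and Relt at 4.79 and 3.13 TPM with K97E and 2.25 and 4.01 TPM with WT, each with overlapping groups. Fasl was at or below 0.0391 TPM, and Cd40lg and Cd70 were listed at 0.

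Genes that carry the signal from the receptors showed no common direction. All 20 receptor-proximal adaptors and ubiquitin enzymes were measured, with 10 lower and 10 higher by value, 0 passing, 1 lower at an unadjusted p under 0.05 and a median log2 difference of -0.0027. Tnip1, a partner of the deubiquitinase A20, had the smallest p among them and stood at 51.3 and 49.5 TPM with K97E and 78.1 and 60.9 TPM with WT (log2 difference -0.51, SE 0.14, limma adjusted p = 0.965). Rbck1, a subunit of the linear ubiquitin ligase, differed by 0.15 and the adaptor Traf3 by 0.14. Of 15 kinases between receptors and NF-kB or MAP kinases, 10 were lower and 5 higher by value and 0 passed, 1 being lower at an unadjusted p under 0.05, with Map3k8 at -0.33, Tab1 at 0.18 and Mapk14 at 0.19. Of 9 genes of the death machinery 8 were measured, 3 lower and 5 higher, with Mlkl, the effector of necroptosis, at -0.23. The 6 genes for shedding and trafficking of these proteins, with the TNF-releasing protease Adam17 among them, were 3 lower and 3 higher, with Rhbdf2 at -0.18, Frmd8 at 0.23 and Adam17 at -0.05. The medians of these last 3 lists were -0.03, 0.01 and -0.0003.

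Genes that textbooks name as induced by TNF were lower by value with K97E as a list. After scaling, all 21 measured of 23 had a negative difference, where 50.5% of tested genes did, with a median of -0.46 against -0.0017. On the deposited values Nfkb2 had a higher mean with K97E, 84.6 against 82.8 TPM, and its scaled difference was -0.03. At an unadjusted limma p under 0.05 there were 11 lower and 0 higher, where 2.54% of tested genes were lower and 1.14% higher at that level, but 0 passed over all tested genes. Nos2 stood at 4.12 and 5.25 TPM with K97E and 21.4 and 38.0 TPM with WT, Lcn2 at 12.3 and 17.2 TPM with K97E and 39.9 and 55.4 TPM with WT, and Cxcl1 at 303 and 393 TPM with K97E and 730 and 675 TPM with WT. These genes answer to many signals besides TNF, and their lower values were known from these libraries when the list was made, so the list is not independent evidence. Its summed level was 6852 and 6757 TPM in the K97E libraries and 8442 and 9096 TPM in the WT libraries.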

How the data were processed

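RNA of 4 libraries was sequenced as paired reads of 100 bases from a stranded kit, per the labels' protocols. Per the file headers, the authors deposited StringTie 2.1.7 estimates of TPM, FPKM and coverage for the transcripts of Ensembl release 104, with no strand option in the recorded command. The build is GRCm39, and HISAT2, SAMtools, FastQC and DESeq2 are also named, per the submitters' processing notes, with no role given.

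TPM was summed over the 142434 transcripts to 55416 genes, taking a gene's name from another attribute of the line where the usual one was missing. Read numbers are estimates from coverage, length and read length, and not counts, so no count model was used. Values were divided by median-of-ratios factors (1.043 and 0.9975 for K97E, 0.9798 and 0.98 for WT), put on the log2 scale with a pseudocount of 0.5 and filtered at a mean of 0.5 TPM. K97E was set against WT by limma (version 3.58.1, R 4.3.3, eBayes with trend) with Benjamini-Hochberg adjustment, a script tested on simulated data. Tables and plots used Python 3.11.15, pandas 2.3.3 and matplotlib 3.10.9. Every measured member is named with its values, and in each pathway list the 3 genes with the smallest p, except that some of these genes are not reported here. The members and the lists were chosen with earlier results of these data known. RefSeq promoters were matched by symbol, for 29 of 38 members, and were not converted between builds. Alternatives were other scalings, pseudocounts, filters and variance settings, FPKM, the most abundant transcript, a replicate block and leaving out each library.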

Additional observations from a re-analysis of the deposited data

How the results depend on the processing

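Members passing the threshold numbered 0 under every alternative that gave this count. Genes passing numbered 1 as reported, 2 with TPM as deposited, 0 without a filter, 2 with eBayes without trend, and 0 to 18 with a library left out (0 without K97E replicate 1 or 2, 18 without WT replicate 1, 6 without WT replicate 2). With the replicate number as a block 0 genes passed. Same-numbered samples had deviations correlated at -0.137, so the numbers were not taken as pairs, and the crossed pairing block, added after seeing the data, called 30 genes and 0 members. The median over members was -0.0055 with TPM as deposited and -0.032 with FPKM, where the median of all tested genes was 0.0523 and 0.0221. With a library left out the median over members ran from -0.096 to -0.0404. Members lower by value numbered 9 of 12 with a mean of at least 5 TPM, and the share of all tested genes at that filter is not given here. Of these 9, Tnfrsf1b, Tnfrsf22 and Tnfsf12 turned positive with TPM as deposited.

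Of 21 members 9 kept their sign under every alternative run for them and 12 did not, and 300 of 323 combinations kept it. With TPM as deposited the sign turned for Tnfrsf1b (0.044), Tnfrsf22 (0.0085) and Tnfsf12 (0.0315), and with FPKM for Tnfrsf1b (0.0146) and Tnfsf12 (0.0025). With the most abundant transcript it turned for Tnfsf13os (-0.031), Tnfrsf4 (0.15), Cd40 (-0.68) and Tnfsf13b (-0.12). With a library left out the range was -0.12 to 0.0636 for Tnfsf12, -1.0 to 0.0189 for Tnfsf10, -0.44 to 0.60 for Cd40, -0.0896 to 0.0587 for Tnfrsf1b, -0.16 to 0.22 for Tnfrsf14, -0.0263 to 0.13 for Tnfsf13os, -0.66 to 0.24 for Tnfrsf11b, -0.43 to 0.0243 for Tnfsf13, -0.15 to 0.0451 for Tnfrsf22 and -0.15 to 0.0241 for Tnfsf9. The cause of these turns was not tested. Without a library its group rests on 1 sample, assumed to vary like the other group. With 2 libraries a group, the intervals of Tnfsf10, Tnfrsf11b and Cd40 left room for more than a 2-fold change.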
